A study of Mus musculus with 12 samples.

Results

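Serpina3f and Serpina3g are neighbouring mouse genes for serine protease inhibitors of the serpin superfamily, and the counts of both were followed in a lymphoma cell line left unstimulated or exposed to interferon-γ (IFN-γ) for 3 lengths of time. They are 2 of the 53379 genes in the deposited table, found by Ensembl identifier. They were picked on measured values, namely their rise from almost no reads to the 24 h level and the unequal part of it present after 6 h of exposure. Those values are therefore given as a description, without a test.

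Serpins trap a target protease with an exposed loop near the end of the protein that the protease cuts, after which inhibitor and enzyme stay joined. The mouse carries a cluster of Serpina3 genes where humans have a single SERPINA3 gene, which encodes α1-antichymotrypsin. Serpina3g, also known as Spi2A, acts inside cells, inhibits cathepsin B among other lysosomal cathepsins, and is known as a target of NF-κB. Serpina3f is a close relative whose targets are less well described.

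RNA came from an Eµ-myc B cell lymphoma line on the C57BL/6 strain, a line whose Myc transgene is under an immunoglobulin heavy-chain enhancer and is carried by all 4 groups. The groups were cells with no stimulation and cells given 5 ng/mL recombinant mouse IFN-γ for 1 h, 6 h or 24 h, with 3 libraries each. Exposures were ended with a neutralising antibody (clone XMG1.2, 50 µg/mL) and cells were harvested 24 h after stimulation began. A level in the 1 h and 6 h groups is thus what was present at harvest, not the level when the antibody was added. The labels do not say whether the 24 h and unstimulated cells received antibody, nor whether libraries of a group came from separate cultures, so p-values measure only the spread between these libraries.

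Library totals were 49440358 to 67096610 counts. Most low counts were even (69.9% to 73.9% of genes with 1 to 20 counts in each library), so 2 counts were read as 1 read pair. IFNg_6h replicate 3 stood apart from the other 11 libraries on the second principal component (7.84% of the variance, a score of -39.13 against -0.44 to 11.82), and values resting on it are also given without it. All 10 B cell markers were expressed, with a sum of 2845 to 3068 CPM (counts relative to the scaled library total) per library, and 3 rose and 4 fell after 24 h, where 10.3% of all genes tested were called higher and 8.35% lower. T and NK cell markers summed to at most 0.442 CPM and liver markers to at most 0.0749 CPM, and 0 of 8 in each list reached the level tested. Of 10 myeloid markers 4 were tested and 2 rose after 24 h. Their sum was 8.29 to 10.1 CPM in the other 9 libraries and 40.5 to 45.2 CPM after 24 h, and Mpeg1 alone went from 6.62 ± 0.571 to 40.7 ± 2.07 CPM (SD, n = 3). S100a8 and S100a9 stood at 0 in every library and Lyz2 at 6 to 8 counts per group. In contrast, Itgam held 227 to 440 counts per group and Csf1r 17 to 34. Fcgr3 rose from 53 counts over the unstimulated to 165 over the 24 h libraries (edgeR adjusted p = 0.00363). The part of myeloid transcripts in the rise of the serpins was not tested.

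Serpina3f (ENSMUSG00000066363.12) lies on the plus strand of chromosome 12, chr12:104214544-104221129 in GRCm38, and Serpina3g (ENSMUSG00000041481.16) follows 15.1 kb further at chr12:104236245-104241939, both as protein-coding genes of GENCODE M21. Their upstream sequences are shown because both genes rose together, from the start sites of RefSeq (GRCm38.p6). Serpina3i, the next protein-coding member downstream, is shown with them because it had only 2 counts in all 12 libraries. Each line holds the 250 bases before the annotated start, 5′ to 3′ on the plus strand, at chr12:104214294-104214543, chr12:104235897-104236146 and chr12:104262872-104263121. Capitals mark a match to TTCNNNGAA, the interferon-γ activated site (GAS), a DNA element known from promoters that respond to this cytokine.
Serpina3f: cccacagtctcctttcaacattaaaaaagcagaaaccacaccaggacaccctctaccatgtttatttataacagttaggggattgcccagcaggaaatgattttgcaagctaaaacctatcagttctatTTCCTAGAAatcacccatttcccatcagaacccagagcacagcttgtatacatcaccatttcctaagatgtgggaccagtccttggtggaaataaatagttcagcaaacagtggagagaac
Serpina3g: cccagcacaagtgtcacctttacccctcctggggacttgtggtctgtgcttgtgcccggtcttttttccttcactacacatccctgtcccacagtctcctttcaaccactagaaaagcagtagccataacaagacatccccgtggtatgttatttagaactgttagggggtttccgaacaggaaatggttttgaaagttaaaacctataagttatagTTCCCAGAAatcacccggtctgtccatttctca
Serpina3i: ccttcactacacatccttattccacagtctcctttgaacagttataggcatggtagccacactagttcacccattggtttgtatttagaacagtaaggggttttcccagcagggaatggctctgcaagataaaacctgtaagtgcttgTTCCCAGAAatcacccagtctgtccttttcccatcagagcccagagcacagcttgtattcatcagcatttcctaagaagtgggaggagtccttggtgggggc

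The 3 windows each held 1 such match, which read TTCCTAGAA in Serpina3f (chr12:104214423-104214431) and TTCCCAGAA in Serpina3g (chr12:104236114-104236122) and Serpina3i. In the alignment of the 300-base promoter windows of Serpina3f and Serpina3g, which paired 202 bases of which 83.7% were identical, the matches fell in the same column. The match began 121 bases before the Serpina3f start used here, which GENCODE shares, and 210 bases before a second RefSeq start. The window of that second start was not aligned, and the NF-κB form described next lies outside it. The match of Serpina3g began 33 bases before its RefSeq start and 131 bases before its GENCODE start, which lies further downstream. Matches to TTCNNNGAA, a palindrome read on both strands at once, occurred in 7.02% of all 32851 windows of 250 bases. Among the 8 Serpina3 genes with a window, 3 had a match, and those of Serpina3a, Serpina3b, Serpina3c, Serpina3j and Serpina3n had 0. A loose form of the NF-κB motif (GGG, any 5 bases, CC, sought on both strands) was present in Serpina3f, Serpina3g, Serpina3i and Serpina3n, but also in 45.8% of all windows. In Serpina3f it read GGGGATTGCC, with a second match shifted by 1 base and read on both strands, and in Serpina3g GGGGGTTTCC. The first such match began 52 bases before the GAS match in Serpina3f, Serpina3g and Serpina3i alike, a spacing looked up after the matches were seen. A form of the interferon-stimulated response element (GAAA, any 2 bases, GAAA, sought on both strands) was found in 2.98% of windows and in 0 of the 9 Serpina3 windows. These matches are letters only, and binding was not measured.

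Because relatives in a gene cluster can take each other's reads, their transcripts were compared at the read length. Of the 2242 distinct 125-base stretches in Serpina3f transcripts, 99.2% were found in no other gene's transcript. For Serpina3g it was 99.5% of 2286, and 0 stretches were common to the pair. The few shared stretches matched Serpina3e-ps, Serpina3h and Serpina3i. Only exact matches were sought, so nearly identical stretches counted as distinct. How reads with mismatches were assigned was not tested. The transcripts Serpina3f-203 and Serpina3g-201 were 88.9% identical over 1788 aligned bases, and the annotated coding part was 1338 bases in Serpina3f and 747 bases in Serpina3g. The least alike 60-base window of the aligned coding parts lies in exon 5 of 5 of both, at chr12:104220400-104220459 and chr12:104241224-104241283, with 17 differences, shown in capitals.
Serpina3f: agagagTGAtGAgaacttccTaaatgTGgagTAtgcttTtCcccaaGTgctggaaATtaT
Serpina3g: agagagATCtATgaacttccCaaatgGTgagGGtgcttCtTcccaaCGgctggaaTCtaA

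Serpina3f was all but absent without continued cytokine. Unstimulated replicates 1, 2 and 3 held 2, 0 and 0 counts, the 1 h libraries 0, 2 and 0, and the 6 h libraries 6, 4 and 2. The 24 h libraries held 1409, 1358 and 1491 counts, or 24.2, 24.5 and 22.2 CPM. The 24 h libraries lay far above the other 9, which all had 6 counts or fewer and overlapped with one another. The mean was 23.6 ± 1.28 CPM after 24 h (SD, n = 3) against 0.0120 ± 0.0208 CPM in unstimulated cells. From 2 counts against 4258, the ratio was 1940 with a 95% counting interval of 347 to 76500, computed on read pairs by the exact Clopper-Pearson method. These intervals take in counting error alone, because copies made during amplification were not told apart. In bulk RNA, fewer expressing cells and less RNA per cell cannot be told apart.

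Serpina3g was likewise near 0 in unstimulated cells and highest after 24 h, where its level was lower than that of Serpina3f. The unstimulated libraries held 0, 0 and 0 counts, the 1 h libraries 0, 2 and 2, the 6 h libraries 6, 6 and 16, and the 24 h libraries 225, 210 and 306 counts. Here the 6 h libraries lay above all unstimulated and 1 h libraries, and the 24 h libraries above all others. The mean was 4.07 ± 0.418 CPM after 24 h. With a floor of 6 counts (3 read pairs) over the group, equal to 0.0365 CPM in unstimulated cells, Serpina3g was at least 112-fold higher after 24 h than in unstimulated cells. In the comparison of 24 h with unstimulated cells 18.7% of the 14299 genes tested were called at an adjusted p under 0.05. Both members were chosen on that contrast, so no test of theirs is given.

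**Figure D1:**
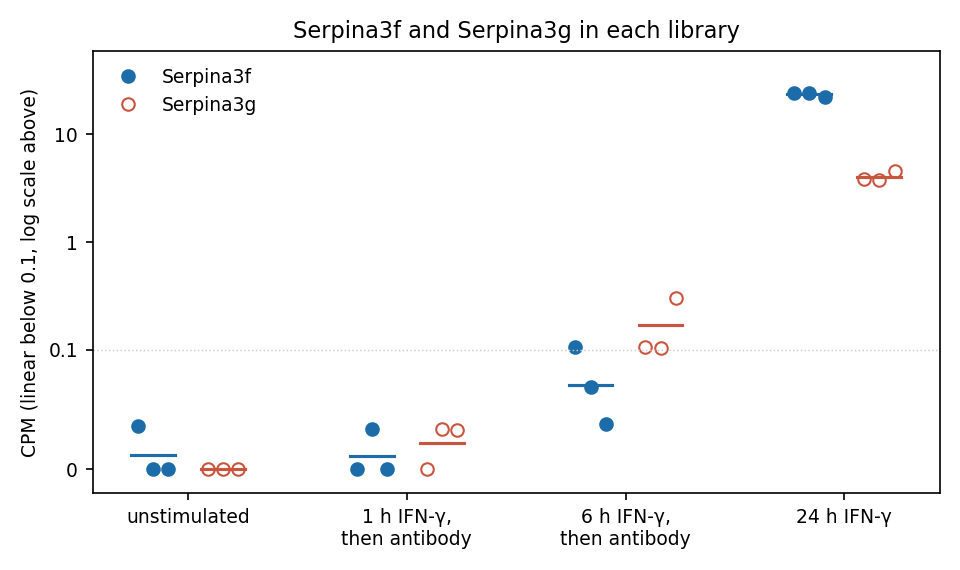
CPM of Serpina3f (filled) and Serpina3g (open) in each of the 12 libraries, with bars at the group means; the axis is linear below 0.1 CPM and logarithmic above. Serpina3f reaches 22.2 to 24.5 CPM after 24 h and Serpina3g 3.8 to 4.55 CPM, and every value in the other groups is under 0.3 CPM.

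Per exon length, Serpina3f stood at 10.3 ± 0.559 CPM per kilobase (2290 bases of exon) after 24 h and Serpina3g at 1.93 ± 0.198 (2105 bases; SD, n = 3). Among the 14281 tested genes with a length, these 24 h levels lay above 68.9% and 37.2% of genes. In order of level per length, Serpina3f after 24 h was highest, followed by Serpina3g after 24 h, Serpina3g after 6 h at 0.0806 ± 0.0534 and Serpina3f after 6 h at 0.0310 ± 0.0151. The last 2 overlapped in their libraries' counts, and the lower levels overlapped with their neighbours in the same way. Serpina3f exceeded Serpina3g by 5.39 ± 0.797 times per length after 24 h, with the ratio of counts at 6.26, 6.47 and 4.87 in the 3 libraries.

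After the 6 h exposure little of either transcript was present at harvest, and relatively more of Serpina3g. Serpina3f stood at 0.300% of its 24 h mean, with the 3 libraries at 0.45%, 0.291% and 0.158%. The counting interval from summed counts was 0.111% to 0.662%. Serpina3g stood at 4.17%, with libraries at 2.62%, 2.54% and 7.36% and an interval of 2.21% to 6.92%. Replicate 3, the library that stood apart, held 16 of the 28 Serpina3g counts. Without it the share was 2.58% for Serpina3g (interval 0.934% to 5.63%) and 0.371% for Serpina3f (interval 0.12% to 0.867%). The intervals of the pair did not overlap with or without that library, but this difference is what the genes were picked for.

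The make-up of the pair within a library shows the same unequal level after 6 h, relative to 24 h, that the genes were picked for. It is given as a description on a scale where depth is shared. Serpina3g gave 13.8%, 13.4% and 17.0% of the pair's counts in the 24 h libraries. In the 6 h libraries it gave 50%, 60% and 88.9%, each from only 10 to 18 counts. Summed, Serpina3g was 70% of 40 counts after 6 h (exact interval 45.7% to 88.1%) and 14.8% of 4999 counts after 24 h (13.4% to 16.3%). Without IFNg_6h replicate 3 it was 54.5% of 22 counts, with an interval of 23.4% to 83.3%. After 1 h the pair held 6 counts in all, too few for a share.

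**Figure D2:**
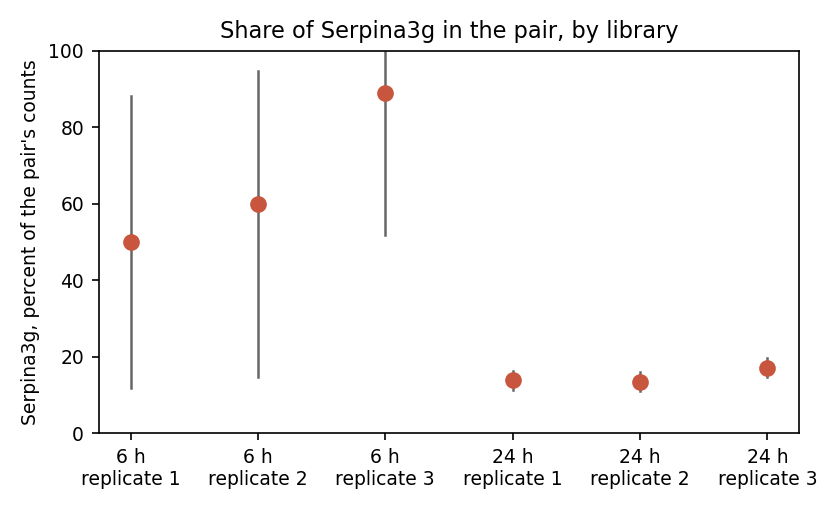
Serpina3g as a percent of the summed Serpina3f and Serpina3g counts in each 6 h and 24 h library, with 95% exact binomial intervals on read pairs. The 24 h libraries sit between 13.4% and 17%, and the 6 h libraries between 50% and 88.9% with wide intervals.

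The 1 h libraries were not used to choose the genes, though the near-zero unstimulated level was. Both genes passed the filter for low counts only through their 24 h libraries. A test of 1 h against unstimulated cells could therefore decide nothing for them, and its p-values are not given. Over all genes tested, 0.42% were called in that comparison. Both groups were at or under 6 counts for both genes, so no fold is given and a difference was not detectable at this depth. At 6 h, where 1.59% of genes were called, the ratio to unstimulated cells was 5.87 for Serpina3f (12 against 2 counts, interval 0.713 to 270). For Serpina3g, 28 counts against the floor of 6 gave a bound of 4.57-fold. That bound leaves out counting error in the 28 counts. Of these, 16 were in IFNg_6h replicate 3, and the bound was not computed without that library.

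To place the pair among genes of similar course, all tested genes with at most 6 counts over the unstimulated libraries and at least 600 over the 24 h libraries were taken, a rule set after the values were seen. There were 17 including the members. Their 6 h level was a median of 0.108% of the 24 h level, from 0% to 4.17%. Serpina3g had the highest share of the 17 and Serpina3f the twelfth from the lowest, ranks 17 and 13 without IFNg_6h replicate 3. The members were picked on this share, so their ranks are a description only. Zbp1, a sensor of nucleic acids, came next below Serpina3g at 1.41%, but its 8 counts after 6 h were all in IFNg_6h replicate 3 and without it the share was 0%. The Serpina3g interval of 2.21% to 6.92% overlapped those of Zbp1 (0.367% to 3.5%), Gm18853 (0.279% to 2.65%) and Gimap3 (0.0778% to 2.35%). Iigp1, an interferon-inducible GTPase with 169388 counts after 24 h, stood at 0.0427%. Serpina3g was fourteenth of the 17 in its 24 h count, so its larger share is a share of a low level, and its 28 counts after 6 h were fewer than the 68 of Iigp1.

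**Figure D3:**
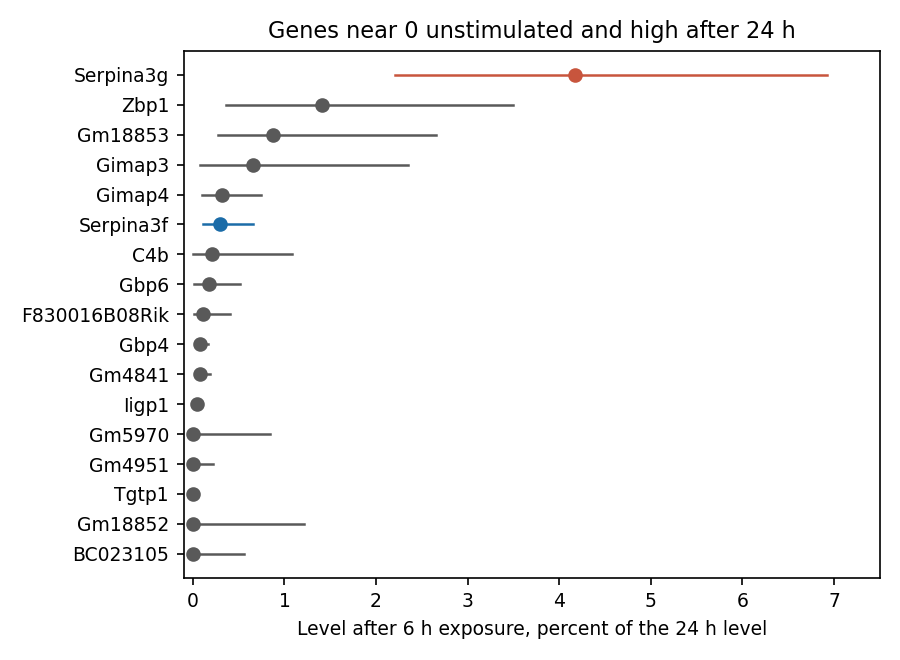
Level after 6 h as a percent of the 24 h level for the 17 genes with at most 6 counts over the unstimulated and at least 600 over the 24 h libraries; points come from mean CPM and lines are 95% counting intervals on read pairs. Serpina3g is the highest at 4.17% and Serpina3f stands at 0.300%.

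The 5 genes whose log2 fold changes against unstimulated cells after 1, 6 and 24 h lay closest to those of Serpina3f (Euclidean distance over the 3 values, 4 groups of 3 libraries) were C4b, Gbp2, Gbp7, Gimap8 and Gimap4, at distances of 0.845 to 2.24. C4b encodes a complement component, the Gbp genes guanylate-binding proteins and the Gimap genes GTPases of lymphocytes. C4b had 0, 0, 2 and 1111 counts over the groups from unstimulated to 24 h. For Serpina3g the closest were Gimap8, Tgtp2, Gbp2, Gbp4 and Gbp7, at larger distances of 4.77 to 5.05. Serpina3f lay at 5.33. Fitted fold changes of genes at 0 depend on the prior count, and Serpina3g, C4b and Gimap8 were at 0 in unstimulated cells. The Serpina3g distances also include a 1 h value fitted from 4 against 0 counts, so they cannot show whether any gene was near it.

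In its neighbourhood the pair was alone. Of the 12 other Serpina3 genes and pseudogenes in the table, 9 had 0 counts in all 12 libraries, among them Serpina3n and Serpina3h, and the largest sum was 7, for the pseudogene Serpina3e-ps, which lies upstream of Serpina3f on the other strand. Serpina3i, whose upstream match was printed above, had 2 counts, both after 24 h. The nearest tested genes were Ppp4r4, 601 kb upstream of Serpina3f, and Dicer1, 446 kb downstream of Serpina3g. Between them lie 44 other genes in the table, 26 of them serpins, of which 40 had 0 counts throughout.

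Beyond that silent stretch, 15 of the 77 genes within 1000 kb on either side were tested. After 24 h 3 rose and 2 fell (10.3% and 8.35% over all genes), and 0 were called after 6 h or 1 h. Over all genes tested, 1.17% were called higher and 0.427% lower after 6 h, and 0.273% and 0.147% after 1 h. Ifi27, a small interferon-inducible mitochondrial protein, rose by 1.42 ± 0.17 on the log2 scale (SE; edgeR adjusted p = 2.62e-07) and its relative Ifi27l2a by 0.71 ± 0.16 (adjusted p = 0.00261). Gm47260 rose by 0.77 ± 0.11 but lies inside Ddx24, with which its reads could be mixed. Otub2, a deubiquitinase, had a log2 fold change of -0.43 ± 0.05 (adjusted p = 3.86e-08). Syne3 had -0.26 ± 0.09 (adjusted p = 0.0416), a call lost on leaving out any 1 of the 6 libraries compared except IFNg_24h replicate 3 (0.0792 to 0.131).

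**Figure D4:**
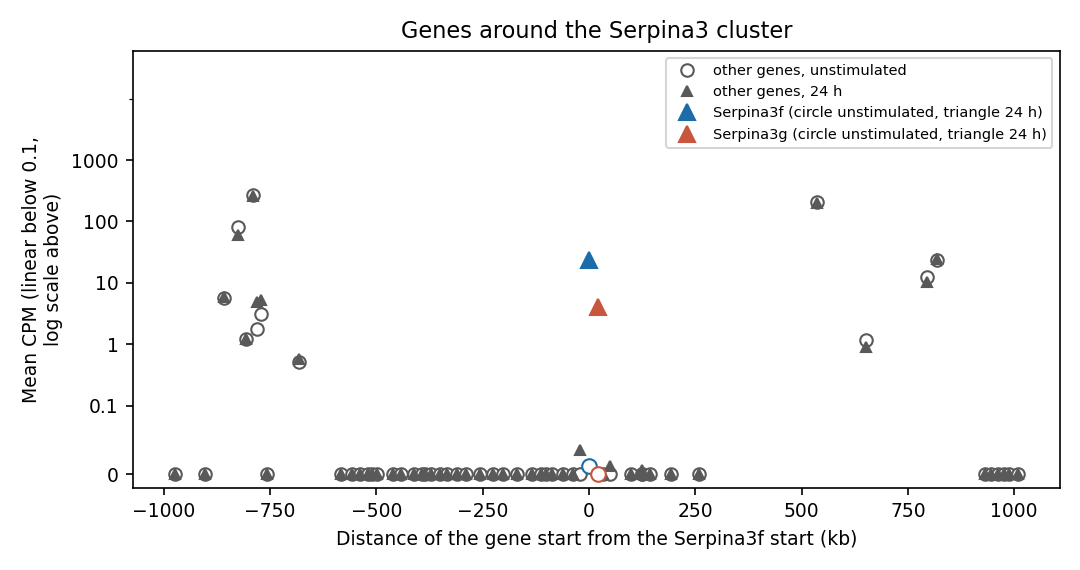
Mean CPM in unstimulated (circles) and 24 h libraries (triangles) of protein-coding genes and unprocessed pseudogenes within 1 Mb, against the distance of their start from that of Serpina3f; the level axis is linear below 0.1 and logarithmic above. Serpina3f and Serpina3g rise to 23.6 and 4.07 CPM inside a stretch where the other genes stay near 0.

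Of 61 other serpin genes in the table, the Serpina3 genes above included, 42 had 0 counts in all libraries and 8 were tested. After 24 h 3 rose and 1 fell, where 10.3% and 8.35% of all genes did, and 0 were called after 6 h or 1 h, where 1.59% and 0.42% of all genes were. The median log2 fold change of the 8 after 24 h was -0.027, against -0.0028 over all genes tested. Serpinb1a, an inhibitor of neutrophil-type serine proteases, had 10.8, 7.83 and 10.7 CPM in unstimulated libraries and 68.95, 67.98 and 71.4 CPM after 24 h. The groups lay far apart, with a log2 fold change of 2.82 ± 0.13 (edgeR, SE, adjusted p = 2.75e-10). It was 8.15 ± 1.66 CPM after 6 h, within the range of unstimulated cells in 2 of 3 libraries. Serpinb9, the inhibitor of granzyme B, rose from 2.41 ± 0.484 to 6.14 ± 0.0559 CPM (adjusted p = 8.33e-08). Serpini1, neuroserpin, rose from 3.72 ± 0.509 to 6.88 ± 0.85 CPM (adjusted p = 5.88e-06), and Serpinf1, pigment epithelium-derived factor, fell from 2.29 ± 0.226 to 0.983 ± 0.205 CPM (adjusted p = 8.71e-05). These 4 genes were all expressed in unstimulated cells, whereas Serpina3f and Serpina3g were not above 2 counts in any unstimulated library.

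**Figure D5:**
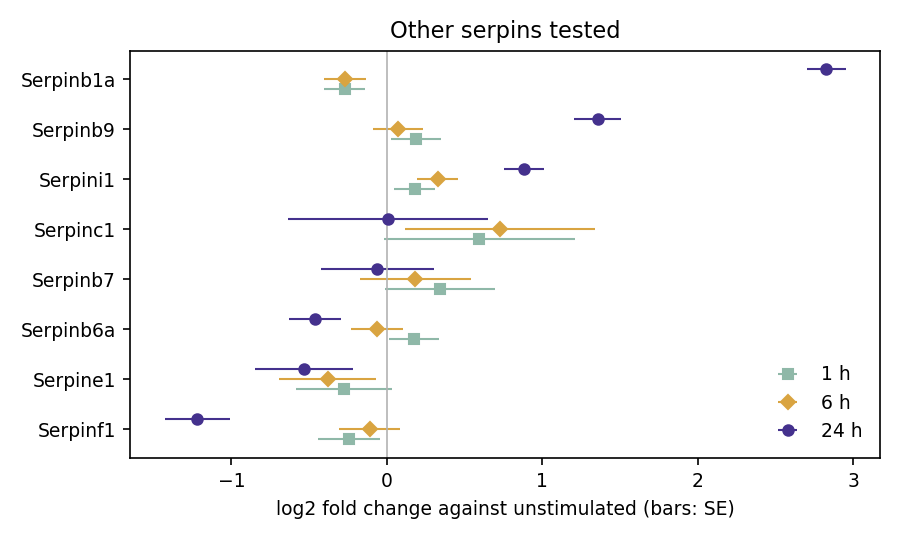
Log2 fold change against unstimulated cells (horizontal axis, bars are SE) of the 8 other serpins tested, after 1 h, 6 h and 24 h. Serpinb1a (2.82), Serpinb9 (1.35) and Serpini1 (0.88) rise after 24 h and Serpinf1 (-1.22) falls, while 0 of the 1 h and 6 h values were called.

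Several proteases of the kinds such inhibitors meet were expressed before IFN-γ. Of 19 cathepsins and legumain, 11 were tested, and 3 rose and 2 fell after 24 h (10.3% and 8.35% over all genes), with a median log2 fold change of -0.0004. Ctsb, the cathepsin that Serpina3g is known to inhibit, was not called after 24 h (adjusted p = 0.998, 13359 counts over unstimulated and 14669 over 24 h libraries). Ctsc, the activator of granule proteases, rose from 92.9 ± 2.24 to 153.7 ± 8.48 CPM and Ctss, which trims the class II invariant chain, from 132.4 ± 10.8 to 204 ± 2.04 CPM (adjusted p = 8.92e-13 and 1.15e-10). Ctse, an aspartic protease, fell from 189.5 ± 3.76 to 147.2 ± 0.542 CPM (adjusted p = 1.44e-07). After 6 h only Ctsh was called, at -0.38 ± 0.09, and after 1 h only Lgmn, at -0.21 ± 0.05 (adjusted p = 0.0316 and 0.0283), where 0.427% and 0.147% of all genes were called lower. Of 16 genes for granzymes, other granule proteases and perforin (Prf1), only Gzmm reached the level tested, and it was not called (adjusted p = 0.665). Among cystatins and other inhibitors 5 were tested and 1 was called, Cast at -0.18 ± 0.06 (adjusted p = 0.0249), a call lost without unstimulated replicate 3, IFNg_24h replicate 1 or IFNg_24h replicate 3 (0.161, 0.0728 and 0.114).

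Of 19 interferon signalling and promoter-binding factors, all tested, 10 rose after 24 h and 0 fell (10.3% and 8.35% over all genes), with a median log2 fold change of 0.69. After 6 h or 1 h 0 were called, where 1.59% and 0.42% of all genes were. Irf1, an interferon-induced transcription factor, stood at 10.35, 10.52 and 10.83 CPM in unstimulated libraries, 11.42, 12.33 and 12.5 CPM after 6 h and 231.3, 214.6 and 217.5 CPM after 24 h. The 24 h libraries lay far above the others, and the 6 h libraries lay just above the unstimulated ones. Its adjusted p after 6 h was 0.109 (edgeR). Irf1 and the feedback inhibitor Socs1 had log2 fold changes of 4.39 ± 0.06 and 4.53 ± 0.19 after 24 h. Socs1 held 63 counts over the unstimulated, 126 over the 1 h and 120 over the 6 h libraries. Its log2 fold changes were 0.88 ± 0.24 after 1 h and 0.89 ± 0.24 after 6 h (edgeR adjusted p = 0.115 and 0.054). Of 10 NF-κB subunits and inhibitors tested 4 rose and 0 fell after 24 h (10.3% and 8.35% over all genes), with a median log2 fold change of 0.079, led by Nfkbiz (0.61 ± 0.13), Nfkbie (0.59 ± 0.12) and Rel (0.33 ± 0.06). Rela and Nfkb1 were not called (adjusted p = 0.881 and 0.166).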

How the data were processed

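Gene counts of 12 libraries were taken from the authors' single table, unnormalised. The submitters' processing notes list featureCounts 1.4.3-p1, STAR 2.5.2a and Picard, with mm10 as the genome. Neither annotation release nor strand setting is given in the sources used. Some header separators are doubled, so the 12 names were read in order and matched to sample titles. Symbols were found for 53274 of 53379 identifiers. Positions and exon lengths came from GENCODE M21 (GRCm38) and upstream sequences from RefSeq (GRCm38.p6).

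Genes were filtered with filterByExpr, scaled by TMM, and all 12 libraries fitted together in edgeR 4.0.16 under R 4.3.3. Quasi-likelihood F tests (robust) covered 14299 genes with 8 residual degrees of freedom and Benjamini-Hochberg adjustment; calls are at an adjusted p under 0.05. CPM uses TMM-scaled library sizes, and CPM per kilobase divides by exon length. The script was checked on simulated data. Pairs of libraries within a group differed by more than sampling noise (chi-square per degree of freedom 2.413 to 7.88 on halved counts). The members and lists were chosen with earlier results of these data known. Genes named are the members, Irf1, Rela and Nfkb1, every other serpin called, up to 3 called genes per list with the largest 24 h change and at least 1 CPM, called genes within 1000 kb, and the 5 genes most like each member, predicted genes left out; others, among them Ctsb, Gzmm, Zbp1 and Iigp1, were chosen after their values were seen. A further gene of this rule is not reported here. Alternatives were DESeq2 1.42.0, RLE factors, a filter of at least 1 count in any library, a replicate block, halved counts, and each library left out; for shares also library totals and subtraction of the unstimulated level. Shares without IFNg_6h replicate 3 and the alternatives for single named genes were chosen after seeing the data.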

Additional observations from a re-analysis of the deposited data

How the results depend on the processing

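The 1 h comparison of Serpina3f and Serpina3g rests on 0 to 2 counts per library, so its alternatives say nothing of stability and are not given. Their share of the 24 h level after 6 h ran from 0.225% to 0.371% and from 2.58% to 4.99% when 1 library was left out, and other scalings or subtraction of the unstimulated level moved it by less than the spread between the 6 h libraries. The Serpina3g share fell by over 1.5 times without IFNg_6h replicate 3. The other serpins called after 24 h numbered 4 or 5 in every alternative. The genes called after 24 h numbered 1816 to 2520 with 1 library left out, against 2667. After 6 h the count of 228 became 413 with genes of at least 1 count and 374 with DESeq2, and ran from 89 (without unstimulated replicate 1) to 531 (without IFNg_6h replicate 3). After 1 h the count of 60 became 174 and 116 in the same alternatives, and ran from 15 (without unstimulated replicate 1) to 114 (without unstimulated replicate 2). Each library compared moved the 6 h count by over 1.5 times except unstimulated replicate 2, and the 1 h count except IFNg_1h replicate 2. The cause was not tested. Of 23 named genes called after 24 h, 21 kept the call in all 11 alternatives, and the exceptions are Cast and Syne3.

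Same-numbered libraries did not deviate together (correlations of deviations from -0.0656 to 0.0618 over 18 pairs). This cannot show whether they shared a culture or a preparation, which the labels do not state. The main fit did not pair them. With the replicate block 2746, 265 and 78 genes were called after 24 h, 6 h and 1 h, against 2667, 228 and 60 without it. Depth limits the 1 h and 6 h values of the pair, which rest on 0 to 16 counts per library.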
